A study of Mus musculus with 13 samples.

Results

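The genes described here are 40 mouse genes of glutathione metabolism and antioxidant defence, 21 glutathione transferases and 19 others. Their probe sets were taken by symbol, as those that the array's annotation lists with exactly 1 of these genes. Where a gene had several, the probe set with the highest mean stood for it. This gave 38 members among 19934 genes on the array, 20 glutathione transferases and 18 others, and all 38 passed the filter on low values that left 15875 genes for the test. Prdx6 was not analysed here. Gstp2 shares 2 probe sets with Gstp1 and has no value of its own.

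The levels are log2 intensities from a mouse whole-transcript Affymetrix array, in epithelium peeled from the tissue after dispase. Expression was compared between p120 flox/flox mice and mice wild type for p120-catenin (p120 +/+, called controls), on a mixed C57Bl/6 and 129 background. All animals, the controls included, carried L2-Cre, a transgene in which a viral promoter drives Cre in squamous epithelium of the upper digestive tract. The 4 groups were flox/flox esophagus (animals 193, 307, 313 and 335), control esophagus (214, 216 and 217), flox/flox forestomach masses (412, 426 and 510) and control forestomach. Control forestomach came from the same 3 animals as control esophagus. Ages were not given in the labels. All forestomach samples of flox/flox animals were masses, so genotype and the formation of a mass cannot be told apart there.

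Glutathione is made from cysteine, glutamate and glycine, and it is the main small thiol of the cell. Glutathione transferases join it to reactive compounds, glutathione peroxidases use it to reduce peroxides, and glutathione reductase restores it from its oxidised form. Many of these genes are targets of NRF2, a transcription factor encoded by Nfe2l2. KEAP1 holds NRF2 for degradation until oxidants or electrophiles modify KEAP1. In squamous epithelium of the esophagus and forestomach this system meets chemicals taken up with food.

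Ctnnd1, the gene of p120-catenin, had 9.95 to 10.13 in flox/flox esophagus against 10.21 to 10.50 in control esophagus, and 9.51 to 9.91 in the masses against 10.14 to 10.40 in control forestomach. Whether its probe set lies in the deleted exons is not stated in these sources, so the values check the labels only in part. Arrays had median intensities of 65.3 to 72.4, and precision is limited by how few arrays each group holds. All 10 squamous differentiation markers, such as Krt4 and Krt13, had a log2 intensity above 5 in every group. Mass 426 stood apart. The summed intensity of 9 glandular stomach markers was 41734 in mass 426, against 477 and 596 in masses 412 and 510 and 459 to 506 in control forestomach. Gkn2 and Pgc, which mark glandular stomach cells, were above 5 in mass 426 and in no array of the other groups. The calls in the masses are therefore given with and without mass 426. Among the esophagus arrays, flox/flox 307 and 335 and control 214 had summed skeletal muscle markers of 4203, 13300 and 5444, against 444 to 536 in the other 4. The same 3 arrays had summed fibroblast and matrix markers of 7129, 10211 and 18154, against 921 to 1592. In such bulk samples, fewer cells of a type and less RNA per cell cannot be told apart.

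In the masses, 13 of the 38 members fell and 2 rose relative to control forestomach, by the moderated test of limma with p-values adjusted over all 15875 genes and a threshold of 0.05. The members that fell are 34.2% of those tested, beside 8.40% of all genes, and those that rose are 5.26%, beside 2.31% of all genes. The fall lay mostly in the glutathione transferases, of which 9 of 20 fell and 0 rose, with a median log2 difference of -0.67. Those called were Gstm1, Gstm2, Gstm3, Gstm4, Gstm6, Gstp1, Gstt3, Gstz1 and Mgst1. The 5 Gstm genes among them are similar in sequence and may share signal, so they may not count as separate members. Of the 13 transferases outside the Gstm genes, 4 fell. Of the 18 other members, 4 fell (Hmox1, Txnrd1, Srxn1 and Gclm) and 2 rose (Gsr and Prdx1), with a median of -0.21. The median of all genes was 0.01. For 18 of the 38 members (47.4%) every mass lay below every control, beside 17.5% of all genes. Without mass 426, 21 members were called, 18 lower and 3 higher, beside 11.6% of all genes (1280 lower and 563 higher). Of these members, 12 were among the 15. Gclm, Gsr and Srxn1 lost their calls without mass 426 (adjusted p = 0.0656, 0.123 and 0.103, limma).

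In flox/flox esophagus 0 of the 38 members were called, beside 0.0126% of all genes. Counted at an unadjusted p under 0.05, 8 members were lower and 0 higher, which is 21.1% of the members beside 6.98% of all genes. They were Gclm, Gstm2, Gstm4, Gstm6, Gstm3, Gstm1, Gstt3 and Gsta4, so 7 of the 8 were glutathione transferases. For 9 members (23.7%) every flox/flox array lay below every control array, beside 6.10% of all genes. The median difference was -0.32 over the 20 glutathione transferases and -0.12 over the 18 others, beside 0.01 over all genes. Of the transferases 17 (85.0%) had differences below 0, beside 48.4% of all genes.

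**Figure D1:**
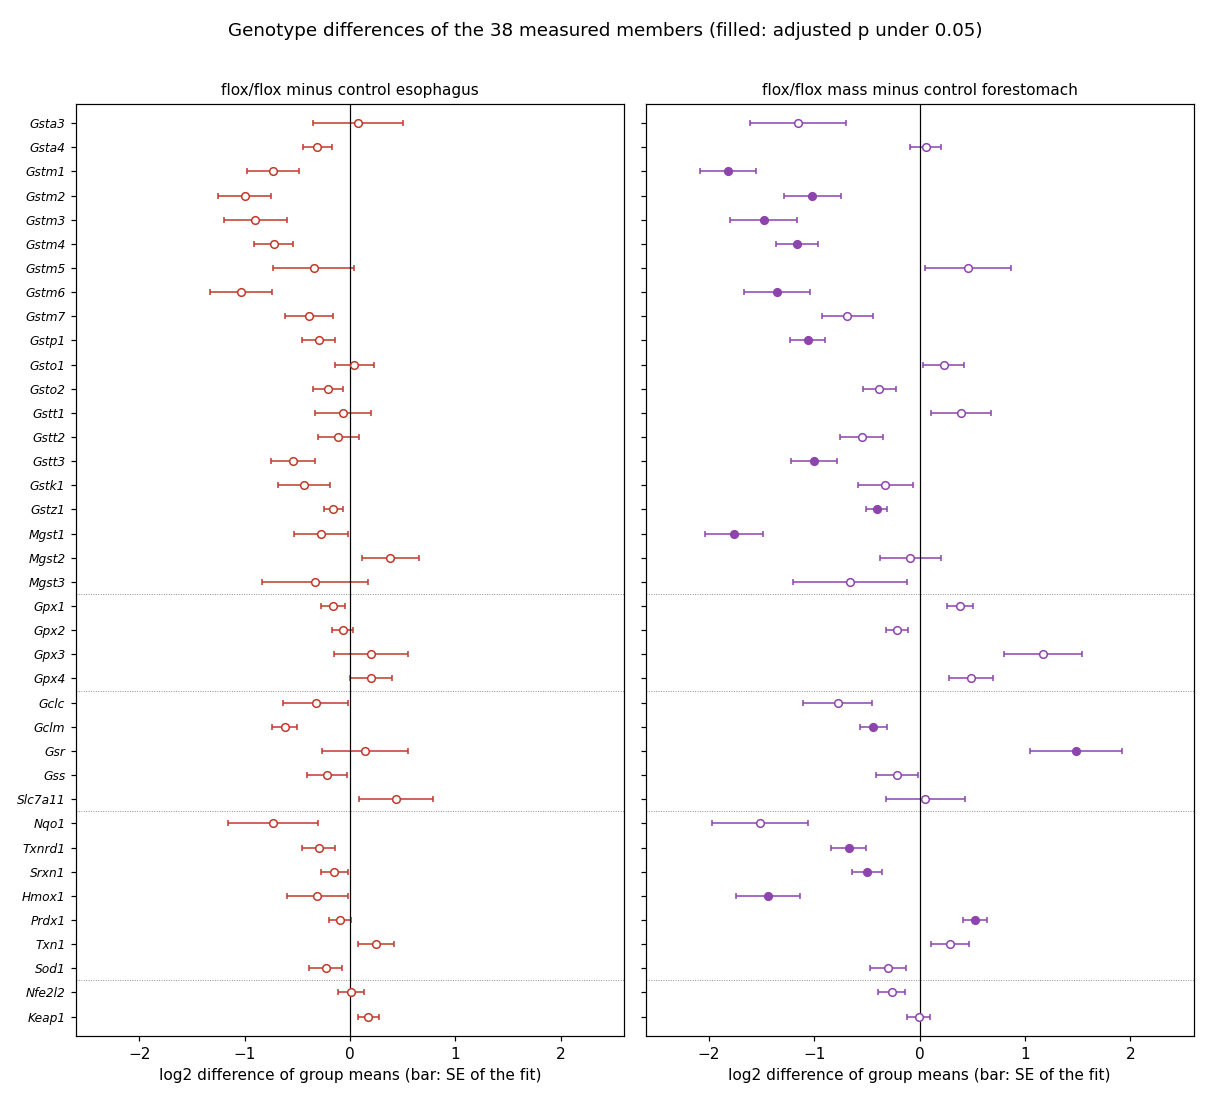
Log2 difference of group means for each of the 38 measured members (rows, dotted lines part the roles), with flox/flox minus control esophagus at the left and flox/flox forestomach mass minus control forestomach at the right. Points are the estimates of limma, bars their SE, and filled points passed an adjusted p of 0.05. The filled points of transferases at the right all lie below 0, down to -1.82 for Gstm1. The filled points above 0 are Gsr and Prdx1, and the left panel has no filled points.

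The promoters of called members are shown for the letters of the antioxidant response element, the site that NRF2 binds with a small MAF protein. The windows come from RefSeq on build GRCm38.p6, and hold 250 bases before and 50 bases after each listed start. The letters searched were TGACNNNGC on both strands, where N is any base, with no other motif searched. They occurred in 12.4% of all 32851 windows. Of 34 listed genes with a window, 10 held them in at least 1 (29.4%), beside 14% of all genes with a window. Among members called in the masses the count was 5 of 13, and among those tested and not called it was 5 of 20. Gsr and Hmox1 were called but have no window here, so they were not searched. Shown are the 150 bases before the start of 4 called members whose match lies there. Also shown are those of the 3 called members with the smallest adjusted p among those without a match to these letters. Capitals mark the match, which reads on the strand opposite to the gene in all 4.
Mgst1: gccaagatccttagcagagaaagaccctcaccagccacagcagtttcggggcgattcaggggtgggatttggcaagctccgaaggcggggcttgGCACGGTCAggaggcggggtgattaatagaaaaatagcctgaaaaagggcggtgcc
Prdx1: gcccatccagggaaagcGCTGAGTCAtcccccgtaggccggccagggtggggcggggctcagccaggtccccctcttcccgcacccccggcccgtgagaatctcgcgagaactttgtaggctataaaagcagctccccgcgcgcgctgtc
Txnrd1: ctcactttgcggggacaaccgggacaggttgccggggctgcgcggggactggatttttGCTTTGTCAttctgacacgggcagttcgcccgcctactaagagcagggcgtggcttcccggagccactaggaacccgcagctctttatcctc
Gclm: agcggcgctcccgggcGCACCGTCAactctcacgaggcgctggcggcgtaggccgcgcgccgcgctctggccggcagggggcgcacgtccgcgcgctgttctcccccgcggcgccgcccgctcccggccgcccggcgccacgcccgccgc
Gstm1: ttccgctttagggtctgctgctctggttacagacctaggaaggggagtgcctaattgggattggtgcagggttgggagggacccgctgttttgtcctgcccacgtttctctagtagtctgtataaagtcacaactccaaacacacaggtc
Gstp1: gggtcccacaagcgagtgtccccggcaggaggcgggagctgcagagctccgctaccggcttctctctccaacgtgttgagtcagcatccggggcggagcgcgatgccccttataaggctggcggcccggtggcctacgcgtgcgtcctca
Gstm4: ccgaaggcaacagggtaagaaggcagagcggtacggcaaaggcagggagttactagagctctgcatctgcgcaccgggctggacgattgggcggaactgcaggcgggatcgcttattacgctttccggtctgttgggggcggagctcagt
The stretches are chr6:138140377-138140526, chr4:116685449-116685598, chr10:82859056-82859205 and chr3:122245407-122245556 on the plus strand, and chr3:108017819-108017968, chr19:4037913-4038062 and chr3:108044857-108045006 on the minus strand. Txnrd1 has 3 listed starts, and Mgst1, Gstm1 and Gstm4 have 2 each, of which 1 is shown. Counted from the start, the match lies at -56 to -48 in Mgst1, at -133 to -125 in Prdx1, at -92 to -84 in Txnrd1 and at -134 to -126 in Gclm. Srxn1 has its match at 29 to 37, behind the start. Prdx1 rose in the masses and the other 3 genes with capitals fell, so the letters occur in members that moved either way. A match is a description of these windows and was not tested as a binding site. A window without a match may still hold another form of the element, since only these letters were searched. The Gstp1 stretch, for example, holds tgagtcagc, which departs from them only by g in place of c.

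The mu-class transferases, encoded by the Gstm genes, conjugate glutathione to epoxides, quinones and other electrophiles. Of the 7 Gstm genes, 5 fell in the masses (71.4%, beside 8.40% of all genes) and 0 rose. Gstm1 had 9.63, 10.74 and 10.38 in masses 412, 426 and 510, against 12.06, 12.09 and 12.06 in control forestomach 214, 216 and 217. All 3 masses lay far below the controls, which were nearly equal. The log2 difference of Gstm1 was -1.82 (SE 0.27), 3.53-fold lower, with an adjusted p of 0.00238 by limma. Gstm4 had 6.32, 6.95 and 6.68 in the masses, against 7.64, 7.97 and 7.84 in control forestomach. Its difference was -1.17 (SE 0.20), 2.24-fold lower (adjusted p = 0.00497, limma). Gstm3 had 7.71, 8.83 and 8.62 in the masses, against 9.89, 9.83 and 9.88 in the controls. The groups did not overlap, and the difference was -1.48 (SE 0.32), 2.79-fold lower (adjusted p = 0.0136, limma). A further probe set of Gstm3 gave -1.01. For control forestomach minus control esophagus, the Gstm3 probe set used gave 0.28 and the further one -0.43. The source of this disagreement was not tested.

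Gstm6 differed by -1.35 and Gstm2 by -1.02 in the masses, with adjusted p of 0.0194 and 0.0334 by limma. In both genes every mass lay below every control. Without mass 412 neither passed (adjusted p = 0.0639 for Gstm6 and 0.0892 for Gstm2), and without mass 510 Gstm2 did not (0.0844). Gstm7 was below every control too, with -0.69, and did not pass (adjusted p = 0.100). Gstm5 was not below the controls in every mass. It had 8.45, 9.82 and 10.04 in masses 412, 426 and 510, against 9.26, 8.74 and 8.92 in control forestomach, a difference of 0.46 (SE 0.41, adjusted p = 0.549) with groups that overlapped. Masses 426 and 510 lay above the controls and mass 412 below them. In the RefSeq annotation the 7 genes form 1 cluster on chromosome 3, in the order Gstm5, Gstm7, Gstm6, Gstm3, Gstm2, Gstm1 and Gstm4, with Gstm5 alone on the plus strand. The mu-class genes are similar in sequence, so a probe set may also read a neighbouring gene. How much of each signal is shared was not tested. Without mass 426 the differences were -2.07 for Gstm1, -1.32 for Gstm4, -1.70 for Gstm3, -1.35 for Gstm6, -1.25 for Gstm2 and -0.90 for Gstm7, and all 6 passed (adjusted p from 0.00122 to 0.0385).

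**Figure D2:**
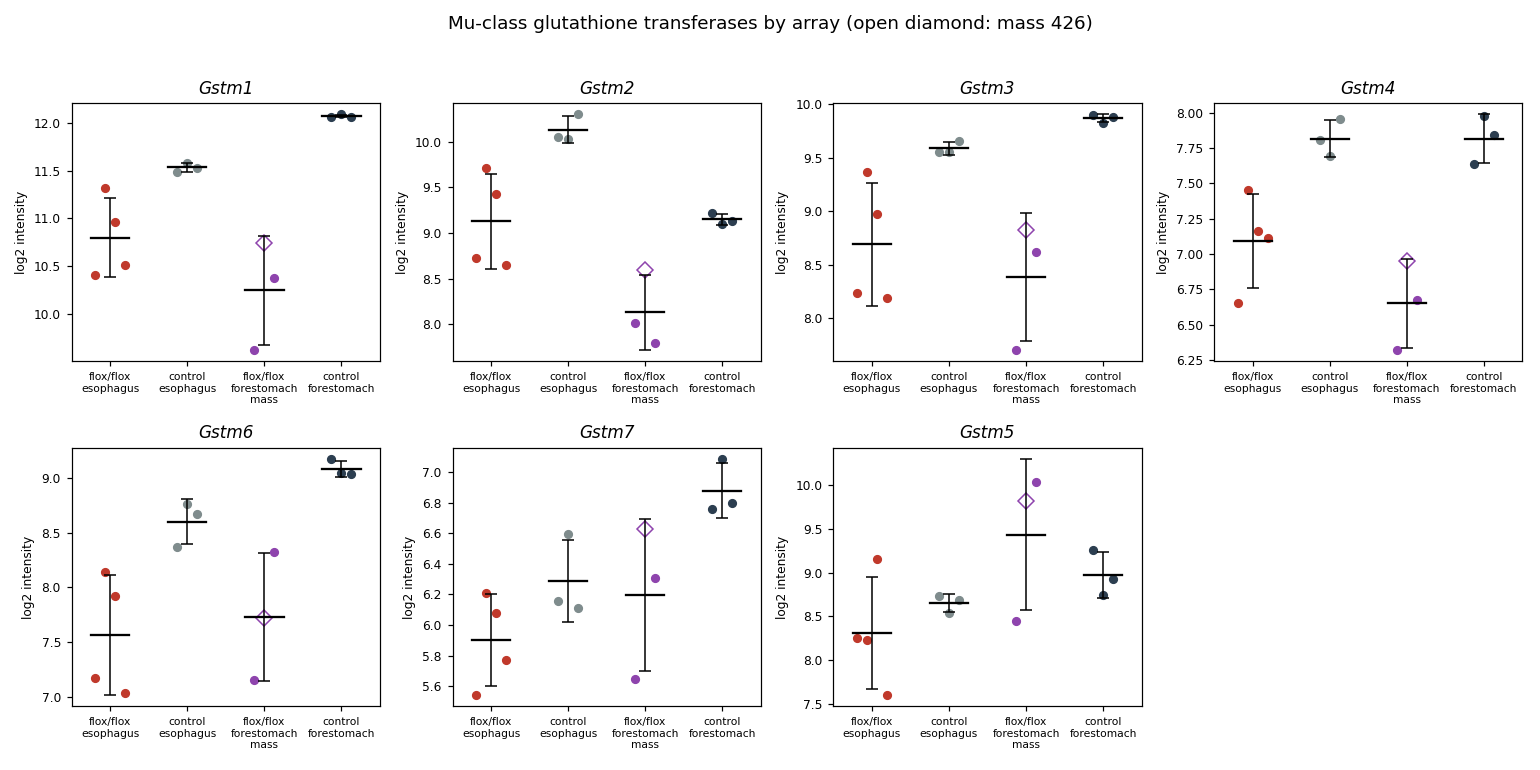
Log2 intensity of the 7 mu-class genes on each of the 13 arrays, by group (flox/flox esophagus, control esophagus, flox/flox forestomach mass, control forestomach). Points are arrays, the open diamond is mass 426, and bars give the mean and SD (n = 4, 3, 3 and 3). Every mass lies below every control forestomach except in Gstm5, and the 4 flox/flox esophagus arrays spread more widely than their controls.

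In the esophagus all 7 Gstm genes had differences below 0, beside 48.4% of all genes, and 0 were called. The differences ran from -1.03 for Gstm6 to -0.34 for Gstm5. That of Gstm5 was 0.09 without the 3 arrays high in muscle markers. Gstm2 had 8.72, 9.71, 9.42 and 8.65 in flox/flox 193, 307, 313 and 335, against 10.05, 10.03 and 10.30 in control esophagus 214, 216 and 217. Its groups did not overlap, with a difference of -1.0005 (SE 0.25, adjusted p = 0.447 by limma). No alternative called Gstm2 here (lowest adjusted p = 0.0893, limma). Gstm1 had 10.41, 11.31, 10.96 and 10.52 in the flox/flox arrays, against 11.49, 11.58 and 11.53 in the controls. These groups did not overlap either, and the difference was -0.73 (SE 0.25, adjusted p = 0.583). The flox/flox arrays were unequal in the same way in both genes, with 193 and 335 lowest and 307 nearest the controls.

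The mean level of Gstm1, Gstm2, Gstm3, Gstm4 and Gstm6 shows this spread between animals. Relative to the mean of control esophagus it was -1.29 in flox/flox 193, -0.34 in 307, -0.65 in 313 and -1.23 in 335, and within -0.08 to 0.09 in the controls. These genes were averaged after their values were seen. Summed squamous differentiation markers were lowest in the same arrays, with 75076 in 193, 93422 in 307, 92794 in 313 and 83447 in 335, against 95592 to 98039 in the controls. Summed leukocyte markers were 5909 in 193, 1191 in 307, 1372 in 313 and 3992 in 335, against 597 to 2448 in the controls. Stress keratins (Krt6a, Krt6b, Krt16 and Krt17), which epidermal cells make after injury, summed to 12316 in 193, 1600 in 307, 6834 in 313 and 10901 in 335, against 518 to 1009. The part of these cell and stress markers in the Gstm values was not tested. Without the 3 arrays high in muscle markers, which leaves 2 flox/flox and 2 control arrays, the differences were -0.87 for Gstm1 and -1.09 for Gstm2, as large as with them.

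Of the 13 transferases outside the mu class, 4 fell in the masses, beside 8.40% of all genes. Mgst1, a membrane-bound transferase of the endoplasmic reticulum and mitochondria that also reduces lipid peroxides, had 8.77, 10.10 and 9.85 in masses 412, 426 and 510. Control forestomach had 11.33, 11.40 and 11.28. The groups lay well apart, with a difference of -1.76 (SE 0.27), 3.39-fold lower (adjusted p = 0.00312, limma). Without mass 426 it was -2.02 (adjusted p = 0.00146). In the esophagus Mgst1 had 9.52, 9.30, 9.61 and 9.32 in flox/flox animals, against 9.48, 9.63 and 10.02 in controls, and the groups overlapped (-0.28, adjusted p = 0.946).

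Gstp1, the pi-class transferase, is abundant in many epithelia and is raised in many human tumours. It had 11.33, 11.74 and 11.95 in the masses, against 12.72, 12.83 and 12.66 in control forestomach. All masses were below all controls, with a difference of -1.06 (SE 0.17), 2.09-fold lower (adjusted p = 0.00320, limma), and -1.10 without mass 426 (adjusted p = 0.00548). The 2 probe sets listed with both Gstp1 and Gstp2 gave -1.10 and -1.29. In the esophagus Gstp1 had 12.20, 12.67, 12.51 and 12.26 in flox/flox animals and 12.53, 12.80 and 12.79 in controls, with overlap (-0.30, adjusted p = 0.776). Gstt3, of the theta class, differed by -0.998 in the masses (adjusted p = 0.0146). Gstz1, the zeta-class enzyme that isomerises maleylacetoacetate in tyrosine breakdown, differed by -0.41 (adjusted p = 0.0232). Gstt3 and Gstz1 had no overlap between masses and controls. Without mass 426 they differed by -1.33 and -0.45 (adjusted p = 0.000115 and 0.0233), and without mass 412 Gstt3 did not pass (0.0510).

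In each role the member whose probe set had the highest mean signal is given in full, which does not rank the transcripts. Among transferases this is Gsta4, an alpha-class enzyme that conjugates 4-hydroxynonenal, a product of lipid peroxidation. It had 12.99, 12.83 and 12.81 in the masses, against 12.92, 12.77 and 12.77 in control forestomach (0.06, SE 0.15, adjusted p = 0.860). The groups overlapped. In the esophagus it had 12.55, 13.23, 13.07 and 12.90 in flox/flox animals, against 13.19, 13.27 and 13.28 in controls (-0.31, SE 0.14, adjusted p = 0.702). Only flox/flox 307 reached the range of the controls. The remaining 8 transferases outside the mu class differed in the masses by -1.15 for Gsta3 to 0.39 for Gstt1 and were not called. In the esophagus the 12 transferases other than Gsta4 outside the mu class lay between -0.54 for Gstt3 and 0.38 for Mgst2. Mgst2 was the 1 member with every flox/flox esophagus array above every control.

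Among the transferases that stood apart in mass 426 were Gsta3, Mgst3, Mgst2 and Gstk1, named after their values were seen. Gstt3, which was called lower, had 7.03, 8.04 and 7.03 in masses 412, 426 and 510, against 8.44, 8.34 and 8.32 in control forestomach. Mgst3, a membrane-bound enzyme, had 7.03, 9.68 and 7.02 in masses 412, 426 and 510, against 8.58, 8.59 and 8.53 in control forestomach. Mass 426 lay above the controls and the others far below them. Gsta3 had 5.58, 8.21 and 6.87 in the masses, against 7.93, 8.18 and 8.02. Without mass 426 the difference was -1.54 for Mgst3, -1.82 for Gsta3 and -0.70 for Gstk1, the mitochondrial and peroxisomal kappa-class enzyme, and these were called (adjusted p = 0.00122, 0.00350 and 0.0247, limma). With all 3 masses the differences were -0.66, -1.15 and -0.33 (adjusted p = 0.510, 0.139 and 0.497). Without mass 412 they were -0.22, -0.50 and -0.13, and without mass 510 they were -0.21, -1.14 and -0.15, and none passed in either. The part of the glandular stomach signal of mass 426 in these values was not tested.

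Among the genes that supply glutathione, Gclm encodes the regulatory and Gclc the catalytic subunit of glutamate-cysteine ligase, the first enzyme of the synthesis. Gclm fell in the masses by 0.44 on the log2 scale, with values of 9.16 to 9.48 against 9.73 to 9.85 in control forestomach (adjusted p = 0.0465, limma). Fitted with animals as a random block it had an adjusted p of 0.0526, so the call is lost there, as it is without mass 426 (0.0656) and without mass 510 (0.106). In the esophagus Gclm had the smallest adjusted p of all members, 0.321. It had 9.70, 9.46, 9.43 and 9.68 in flox/flox animals, against 9.96, 10.28 and 10.32 in controls, a difference of -0.62 (SE 0.12). The 4 flox/flox values were close together and below all controls. Gclc had 8.17, 9.46 and 8.06 in masses 412, 426 and 510, against 9.41, 9.54 and 9.07 in control forestomach (-0.78, adjusted p = 0.165). Without mass 426 its difference was -1.22 (adjusted p = 0.00807), without mass 412 it was -0.58 (0.349) and without mass 510 it was -0.52 (0.361).

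Gsr, glutathione reductase, rose in the masses by 1.49 (SE 0.44, adjusted p = 0.0494, limma), but not in all of them. It had 10.26, 9.79 and 7.95 in masses 412, 426 and 510, against 7.90, 8.02 and 7.63 in control forestomach. Masses 412 and 426 lay far above the controls and mass 510 lay among them. Fitted with animals as a random block it had an adjusted p of 0.0506, without mass 426 one of 0.123 and without mass 412 one of 0.142. Without mass 510 the difference was 2.18 (adjusted p = 0.000194). Slc7a11, the cystine importer, had 10.08, 10.19 and 11.32 in the masses, against 10.50, 10.22 and 10.71 (0.05, SE 0.37, adjusted p = 0.954). Mass 510 was the highest array. In the esophagus Slc7a11 had 10.90, 9.71, 10.21 and 9.55 in flox/flox animals, against 9.45, 9.50 and 10.02 in controls, with overlap (0.44, adjusted p = 0.917). Gss, glutathione synthetase, differed by -0.21 in the masses and by -0.22 in the esophagus, with overlap in both tissues.

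None of the 4 glutathione peroxidases was called in either tissue with limma, although 3 reached an unadjusted p under 0.05 in the masses, beside 24.8% of all genes. Gpx2, the epithelial enzyme of the digestive tract, had 11.57, 11.34 and 11.60 in the masses, against 11.68, 11.74 and 11.72 in control forestomach (-0.21, adjusted p = 0.238). The masses lay below the controls by little. In the esophagus Gpx2 had 11.62, 11.48, 11.76 and 11.51 in flox/flox animals and 11.55, 11.75 and 11.68 in controls, within 1 range (-0.07, adjusted p = 0.994). Gpx3, a secreted peroxidase, differed by 1.17 in the masses (adjusted p = 0.0665), and Gpx1, the common cytosolic enzyme, by 0.39 (adjusted p = 0.0714). For both, all masses were above all controls. Gpx4, which reduces lipid hydroperoxides in membranes, differed by 0.49 (adjusted p = 0.177). Without mass 426 Gpx1 was called, with 0.52 (adjusted p = 0.0144), and without mass 510 Gpx3 and Gpx4 were, with 1.54 and 0.74.

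Hmox1, haem oxygenase, which breaks down haem and is induced by oxidants through NRF2 and by loss of the repressor BACH1, fell in the masses. It had 9.02, 9.07 and 10.42 in masses 412, 426 and 510, against 10.91, 11.10 and 10.82 in control forestomach. Mass 510 was close to the controls and the others far below. The difference was -1.44 (SE 0.31), 2.71-fold lower (adjusted p = 0.0130, limma), and without mass 426 it was -1.22 (adjusted p = 0.0349). In the esophagus Hmox1 had 9.52, 9.36, 9.88 and 9.20 in flox/flox animals, against 9.76, 9.73 and 9.91 in controls, with overlap (-0.31, adjusted p = 0.946). Txnrd1, the cytosolic thioredoxin reductase, had 8.80, 9.23 and 9.26 in the masses, against 9.76, 9.78 and 9.76 in control forestomach. The controls were nearly equal and above every mass, and the difference was -0.67 (SE 0.17, adjusted p = 0.0256). Without mass 426 it was -0.74 (adjusted p = 0.0293), and without mass 412 it was -0.53 and did not pass (0.0789). Txnrd1 had 8.39, 8.71, 8.92 and 8.32 in flox/flox esophagus and 8.77, 8.83 and 9.04 in control esophagus, with overlap (-0.29, adjusted p = 0.780).

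Srxn1, sulfiredoxin, which repairs overoxidised peroxiredoxins, fell by 0.50 on the log2 scale in the masses (adjusted p = 0.0397, limma), with no overlap. It did not pass without mass 426 (0.103) or without mass 412 (0.0688). Prdx1, a peroxiredoxin that reduces hydrogen peroxide, moved the other way. It had 10.87, 10.68 and 10.51 in masses 412, 426 and 510, against 10.17, 10.05 and 10.26 in control forestomach. All masses were above all controls, with a difference of 0.53 (SE 0.11), 1.44-fold higher (adjusted p = 0.0141), and of 0.53 without mass 426 (adjusted p = 0.0266). A further probe set of Prdx1 gave 0.35. In the esophagus Prdx1 had 10.68, 10.57, 10.69 and 10.49 in flox/flox animals and 10.66, 10.60 and 10.85 in controls, within 1 range (-0.09, adjusted p = 0.976).

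Nqo1, a quinone reductase and a common readout of NRF2 activity, is described here although it was not called, after its values were seen. It had 7.63, 9.97 and 8.09 in masses 412, 426 and 510, against 9.98, 10.20 and 10.07 in control forestomach. Mass 426 was just below the controls and the other masses far below them. The difference was -1.52 (SE 0.46, adjusted p = 0.0543, limma), and without mass 426 it was -2.22 (adjusted p = 0.000436). Without mass 412 it was -1.05 and without mass 510 it was -1.28, and neither passed. In the esophagus Nqo1 had 9.39, 9.66, 9.75 and 9.05 in flox/flox animals, against 9.85, 10.32 and 10.41 in controls, with no overlap (-0.73, SE 0.43, adjusted p = 0.809).

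Txn1, thioredoxin, the main protein disulfide reductase of the cytosol, had 13.42, 12.65 and 13.27 in the masses, against 12.90, 12.73 and 12.83 in control forestomach (0.29, adjusted p = 0.357). Masses 412 and 510 lay above the controls and mass 426 below them, and without mass 426 Txn1 was called (0.52, adjusted p = 0.0316, limma). It was 0.14 without mass 412 and 0.21 without mass 510. It had 12.86, 12.54, 12.94 and 13.03 in flox/flox esophagus and 12.61, 12.60 and 12.58 in control esophagus (0.25, adjusted p = 0.879). Only flox/flox 307 was not above the controls. Sod1, the cytosolic superoxide dismutase, differed by -0.30 in the masses and -0.23 in the esophagus, and was called without mass 426 (-0.51, adjusted p = 0.0304). Without mass 412 its difference in the masses was -0.17 and without mass 510 it was -0.22.

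**Figure D3:**
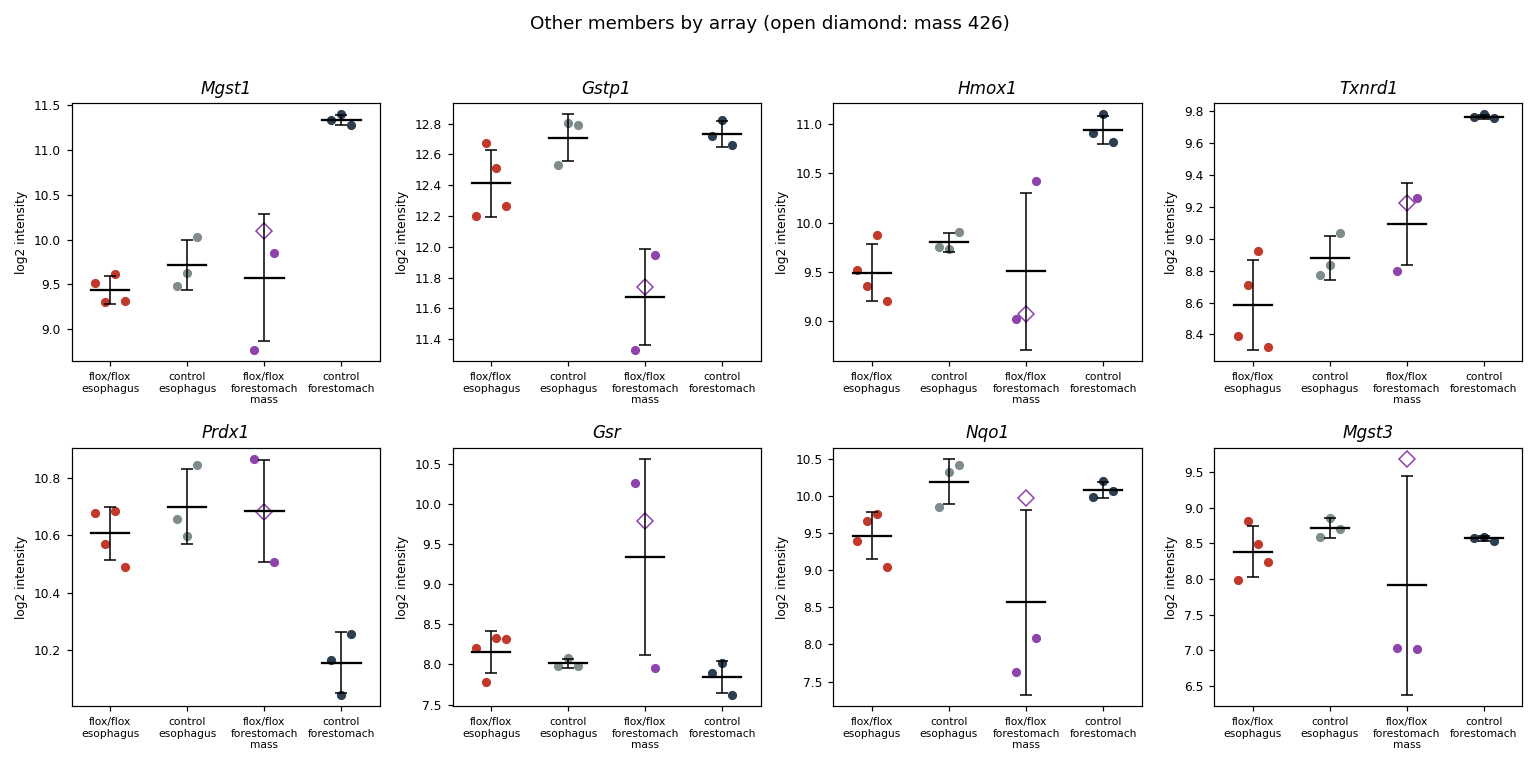
Log2 intensity of Mgst1, Gstp1, Hmox1, Txnrd1, Prdx1, Gsr, Nqo1 and Mgst3 on each array, by group, with the mean and SD (n = 4, 3, 3 and 3). The open diamond is mass 426. It lies at 9.97 in Nqo1 and 9.68 in Mgst3, far above the other masses, and mass 510 lies at 7.95 in Gsr, near the controls.

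The transcripts of NRF2 and its inhibitor were called in none of the 4 comparisons. Nfe2l2 had 11.27, 11.64 and 11.56 in the masses, against 11.90, 11.58 and 11.78 in control forestomach (-0.27, SE 0.13, adjusted p = 0.224, limma). In the esophagus it had 11.69, 11.83, 11.87 and 11.64 in flox/flox animals and 11.67, 11.66 and 11.91 in controls (0.01, SE 0.12, adjusted p = 0.999). Groups overlapped in both tissues. Keap1 had 8.11, 7.78 and 7.84 in the masses, against 7.92, 7.95 and 7.88 in control forestomach (-0.01, SE 0.11, adjusted p = 0.977). It had 8.40, 8.22, 8.24 and 8.12 in flox/flox esophagus, against 8.10, 8.14 and 7.97 in control esophagus (0.17, SE 0.10, adjusted p = 0.811). NRF2 is controlled largely at the protein level, which an array does not measure.

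The masses differed from each other more than any other group. The median SD of the 38 members was 0.425 in the masses, against 0.085 in control forestomach, and it was 0.240 in flox/flox esophagus, against 0.145 in control esophagus. All genes together had a median SD of 0.248 in the masses and 0.115 in control forestomach. The test shares 1 estimate of the spread between groups, so its SE may be too small for the masses. With forestomach arrays alone in the fit, 5 members were called, all lower, beside 2.85% of all genes. In mass 412, 28 of the 38 members (73.7%) lay below all 3 controls and 10 (26.3%) above them, beside 39.9% and 35.8% of all genes. In mass 426, 21 (55.3%) lay below and 13 (34.2%) above, beside 42.0% and 28.7%. In mass 510, 28 (73.7%) lay below and 7 (18.4%) above, beside 36.4% and 40.6%. The mean of the 20 transferases relative to the controls was -1.09 in mass 412, -0.22 in mass 426 and -0.76 in mass 510. That of the 18 others was -0.16, 0.04 and -0.21 in the same order.

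**Figure D4:**
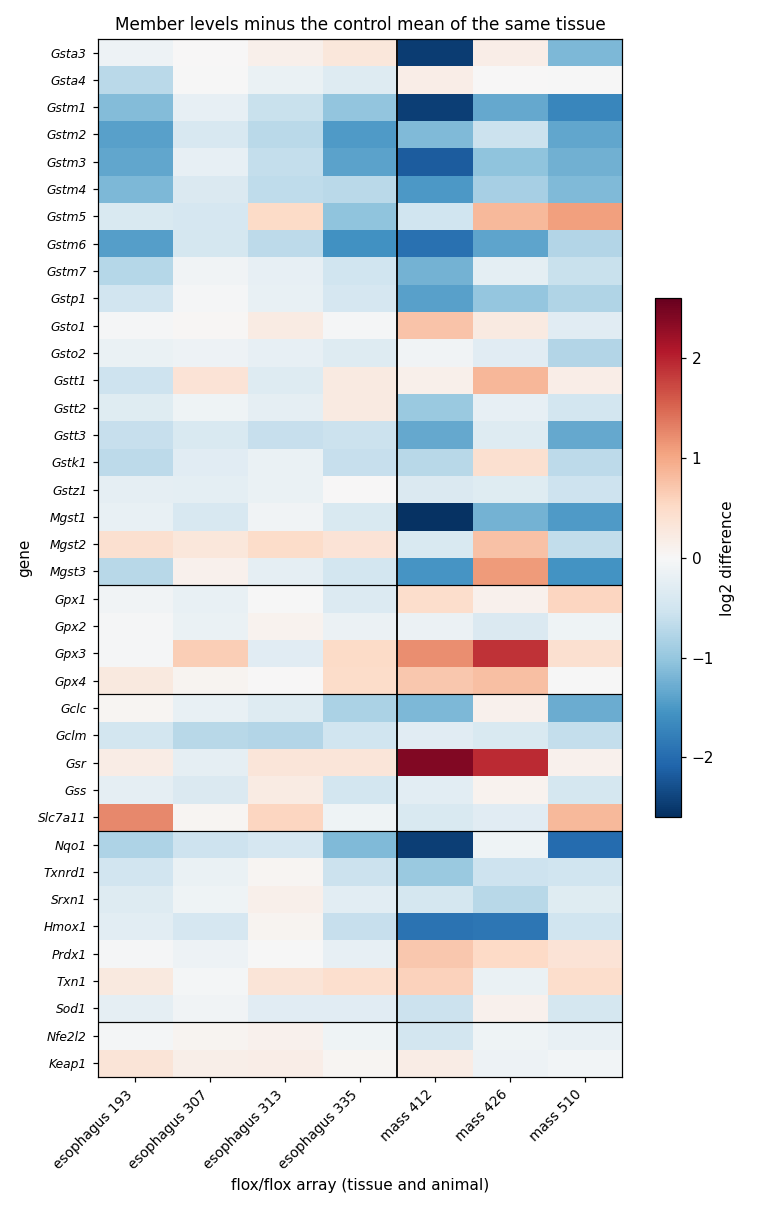
Level of each of the 38 members (rows, black lines part the roles) on each flox/flox array (columns) minus the mean of the controls of the same tissue, in log2 units from blue (lower) to red (higher). Masses 412 and 510 are blue through most transferases, mass 426 is paler or red in Gsta3, Mgst2, Mgst3 and Gstk1, and Gsr is red in masses 412 and 426.

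The 13 falls and 2 rises held to different degrees. Gstm1, Mgst1, Gstp1 and Gstm4 were called under all 23 alternatives, with a highest adjusted p of 0.0296, 0.0418, 0.0352 and 0.0326 by limma. Gstm3 lost its call in 1 alternative, without control forestomach 214 (0.0511). Hmox1 lost its call in 2, with forestomach arrays alone in the fit (0.0808) and without control forestomach 216 (0.0533). Leaving out 1 array gave from 5 members called (without control forestomach 214) to 21 (without mass 426), beside 4.74% and 11.6% of all genes. It gave 6 without control forestomach 216, 8 without control forestomach 217, 9 without mass 412 and 16 without mass 510. The shares of all genes called were 5.22%, 5.10%, 7.50% and 14.1% in the same order. Gclm and Gsr lost their calls in 17 and 18 alternatives and Srxn1 in 13. Txnrd1 and Gstm2 lost theirs in 7 each, Gstm6 and Gstz1 in 5 each, Prdx1 in 4 and Gstt3 in 3. The call of Txnrd1, for example, was lost with quantile normalization (0.0564) and without any 1 of the control forestomach arrays (0.0775 to 0.0807). In every alternative run each of the 15 kept its direction.

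Summed leukocyte, endothelial and stress keratin markers were higher, and squamous differentiation markers lower, in every mass than in every control forestomach. The sums were 5120, 2045 and 7756 for leukocytes in masses 412, 426 and 510, against 964 to 1221 in control forestomach. They were 65475, 69306 and 80520 for squamous differentiation, against 91841 to 93268, and 9085 to 32443 for stress keratins, against 870 to 2842. The basal squamous markers, such as Krt5 and Krt14, summed to 16079 to 22359 in the masses and 14036 to 15152 in control forestomach. Their mean log2 intensity overlapped, with 10.50, 10.51 and 10.18 in masses 412, 426 and 510, against 10.20 to 10.44 in control forestomach. By this mean, mass 510 lay below all controls. Endothelial markers summed to 1082, 1042 and 473 in masses 412, 426 and 510, against 245 to 425. Fibroblast and matrix markers summed to 5318 and 6612 in masses 412 and 426, against 1057 to 2128 in the controls, and mass 510 lay among the controls with 1618. The part of such shifts in cell makeup in the member values was not tested.

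Of 80 other tested genes of glutathione turnover, NRF2 response, thioredoxin and NADPH supply, 11 fell and 0 rose in the masses, and 0 were called in the esophagus, where 11 had an unadjusted p under 0.05. The 11 that fell are 13.8%, beside 8.40% of all genes, and the 11 in the esophagus are 13.8%, beside 6.98%. Ephx1, microsomal epoxide hydrolase, had 8.57, 9.33 and 9.07 in the masses, against 10.53, 10.64 and 10.46 in control forestomach (-1.55, SE 0.17, adjusted p = 0.000736, limma). Osgin1 had 7.11, 7.45 and 7.61, against 8.84, 8.81 and 8.60 (-1.36, adjusted p = 0.00200). Both genes had wide gaps between masses and controls. Cbr3, a carbonyl reductase, differed by -0.83 and Oplah, 5-oxoprolinase of the glutathione cycle, by -1.18 (adjusted p = 0.0138 and 0.0161). Of 14 further NRF2-linked targets in this list, 4 fell in the masses (28.6%, beside 8.40% of all genes). All 14 had differences below 0 in the esophagus, beside 48.4% of all genes, with a median of -0.25 and a smallest adjusted p of 0.587.

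The change in the masses minus that in the esophagus was called for 0 of the 38 members, beside 0.139% of all genes, and 7 members (18.4%) had an unadjusted p under 0.05, beside 10.5% of all genes. So the members called in the masses were not shown to differ from the esophagus in their change. The difference was -1.48 for Mgst1 and -1.09 for Gstm1. Leaving out mass 426 or mass 510 gave calls of members, and leaving out mass 412 gave 0. Without mass 426, Gsta3, Gstt3 and Mgst1 passed, with -1.90, -0.79 and -1.75 (adjusted p = 0.0451, 0.0335 and 0.0455, limma). Without mass 510, Gsr, Hmox1 and Prdx1 passed. The share of all genes called rose as well, to 0.876% without mass 426 and 2.34% without mass 510.

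Between control forestomach and control esophagus, 4 members were higher in forestomach and 1 lower, which is 10.5% and 2.63% of the members beside 3.51% and 3.16% of all genes. Mgst1 had 11.33, 11.40 and 11.28 in control forestomach of animals 214, 216 and 217, against 9.48, 9.63 and 10.02 in their esophagus (1.62, SE 0.27, 3.08-fold, adjusted p = 0.00429, limma). Txnrd1 had 9.76, 9.78 and 9.76 in forestomach, against 8.77, 8.83 and 9.04 (0.89, adjusted p = 0.00812). Forestomach was higher in every animal in both genes. Hmox1 had 10.91, 11.10 and 10.82, against 9.76, 9.73 and 9.91 (1.14, adjusted p = 0.0462), and Gstt2 had 6.91, 6.95 and 6.90, against 6.25, 6.22 and 5.67 (0.88, adjusted p = 0.0263). Prdx1 was lower in forestomach, with 10.17, 10.05 and 10.26, against 10.66, 10.60 and 10.85 (-0.54, adjusted p = 0.0145). The groups did not overlap in any of the 5 genes. The call of Hmox1 was lost in 13 of 24 alternatives, among them no filter on low values (0.0531), median centring (0.0531) and leaving out any 1 of the 6 control arrays (0.105 to 0.163). Gstt2 lost its call in 5, Prdx1 in 4, Txnrd1 in 1 and Mgst1 in 0.

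Mgst1, Txnrd1, Hmox1 and Prdx1 are thus among the members called in both the control tissues and the masses. The control forestomach arrays enter both comparisons, on opposite sides, so their values are given side by side and not as 2 findings. With the levels as measured, the masses had 9.57 for Mgst1 and 9.51 for Hmox1 on average, control forestomach 11.33 and 10.94, and control esophagus 9.71 and 9.80. Since both tissues came from the same 3 animals, a block for the animal bears on this comparison. As a random block it called 12 members (7 higher, 5 lower), beside 16.8% of all genes. As a fixed block it called 13 (10 higher, 3 lower), beside 14.8% of all genes. Gstm2 was lower in forestomach in both, with -0.98 (adjusted p = 0.00896 and 0.00712, limma), and Srxn1 and Gsto2 were higher in both, with 0.49 and 0.53. With each array centred on its median the split was 3 higher and 3 lower, beside 6.37% of all genes called. Without the 3 esophagus arrays high in muscle markers, only Mgst1 of the 5 was called, beside 3.02% of all genes. Of the 80 other genes, 5 were higher in forestomach and 1 lower (6.25% and 1.25%, beside 3.51% and 3.16% of all genes). Ggct, which cleaves gamma-glutamyl amino acids, had the largest difference of these, 2.38 (adjusted p = 0.000207), and Blvrb, biliverdin reductase B, had -0.94 (adjusted p = 0.000976). Nfe2l3, a relative of NRF2, and Chac1, which degrades glutathione, differed by 0.78 and 1.12 (adjusted p = 0.00265 and 0.00477).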

How the data were processed

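Expression was measured in 13 samples of epithelium, in 4 groups of 3 or 4 animals. The authors deposited linear intensity per probe set, computed with GCRMA per the submitters' processing notes. Its version is not given in the sources used here. Values were put on the log2 scale with a floor of 1, which 0 values reached. The platform annotation names 1 gene for 21633 of 34729 probe sets, several for 1306 and no gene for 11790. Probe sets with log2 intensity above 5 on at least 3 arrays were kept, and the highest-mean probe set stood for each gene.

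limma 3.58.1 in R 4.3.3 (lmFit, then eBayes) gave the 4 group means in 1 fit of all arrays, with 9 residual degrees of freedom and Benjamini-Hochberg adjustment over 15875 genes. The fit was also run on simulated arrays, drawn independently and with the same spread of a gene in every group. The masses spread more widely and the control tissues share animals, so the simulation does not check the calls under these features. The member genes, the lists of other pathway genes and markers, and the tests were chosen with earlier results of these data known. Members called are given in full for up to 6 genes a comparison by adjusted p, with the highest-mean member of each role, Nfe2l2 and Keap1. Of the other pathway genes, up to 4 called ones a comparison are named. Replicates are different animals, and animals 214, 216 and 217 gave both control tissues. Deviations from the group means correlated at 0.401, 0.398 and 0.315 between the tissues of 1 animal, and at -0.425 to 0.129 between animals, so the animal was used as a block in an alternative. Other alternatives changed the filter, the probe set rule, the scaling, the arrays fitted, array weights and the variance model, or left out arrays. Scan dates and raw array files were not used here.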

Additional observations from a re-analysis of the deposited data

How the results depend on the processing

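No member changed direction while called in the alternatives run. For the masses, 1700 genes and 15 members were called. Counts were 452 and 5 with only the arrays of the groups compared, and 1102 and 9 with array weights. Leaving out 1 of the 13 arrays in turn gave 753 to 2232 genes and 5 to 21 members. The 2 highest counts came from different arrays. Without mass 426 they were 1843 genes and 21 members, and without mass 510 they were 2232 and 16. Quantile normalization gave 1104 genes lower and 515 higher, beside 1334 and 366. For the esophagus, 2 genes and 0 members were called. The fit of only the esophagus arrays called 0 genes, the random replicate block called 0, and without the 3 arrays high in muscle genes 1 was. Leaving out 1 array gave 0 to 7 genes and 0 members. For the difference of the changes, 22 genes and 0 members were called. Gene counts were 101 with the stricter filter, 49 with quantile normalization, 60 with array weights, 56 with an intensity trend, 145 with the replicate block and 5 without the arrays high in muscle genes. Leaving out 1 array gave 10 to 372 genes and 0 to 3 members. For the control tissues, 1059 genes and 5 members were called. Counts were 2273 and 13 with only these arrays, and 3802 and 16 with array weights. The replicate block gave 2670 and 12 as random and 2348 and 13 as fixed, and leaving out the arrays high in muscle genes gave 479 and 1. Leaving out 1 array gave 543 to 1565 genes and 2 to 8 members. Besides the counts and calls given with the results, the block changed no other call of a member in the masses or the esophagus. The causes of these shifts were not tested.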

Other observations

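Ptges, Hpgds and Alox5ap, which act in eicosanoid synthesis, are relatives of the glutathione transferases or use glutathione, and none of them passed the adjusted test. Ptges, the inducible prostaglandin E synthase, had 9.92, 8.78, 9.21 and 9.41 in flox/flox esophagus 193, 307, 313 and 335, against 8.14, 8.29 and 8.29 in control esophagus 214, 216 and 217. The groups did not overlap, with a log2 difference of 1.09 (SE 0.39, adjusted p = 0.587, limma). In masses 412, 426 and 510 Ptges had 9.12, 7.11 and 7.99, against 7.31, 7.59 and 6.94 in control forestomach, and mass 426 lay within the controls (0.79, adjusted p = 0.269). Hpgds, haematopoietic prostaglandin D synthase, had 8.23, 6.68 and 7.89 in the masses, against 5.68, 5.93 and 6.23 in control forestomach, without overlap (1.66, SE 0.50, adjusted p = 0.0578). In the esophagus Hpgds had 7.77, 5.65, 6.38 and 7.16 in flox/flox animals, against 5.99, 5.25 and 5.99 in controls, with overlap through flox/flox 307 (0.995, adjusted p = 0.730). Alox5ap, the 5-lipoxygenase activating protein of leukocytes, differed by 1.23 in the masses without overlap, and by 0.78 in the esophagus with overlap (adjusted p = 0.0825 and 0.750). Leukocyte marker sums were 2045 to 7756 in the masses, against 964 to 1221 in control forestomach, and their part in these values was not tested.

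Gstp3, a neighbour of Gstp1, had 7.35, 6.17, 7.58 and 6.94 in flox/flox esophagus, against 5.51, 6.22 and 6.35 in control esophagus. The groups overlapped through flox/flox 307, and the difference was 0.99 (SE 0.29, adjusted p = 0.568, limma), where that of Gstp1 was -0.30. These genes were picked for their values after these were seen.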
